A study of Mus musculus with 6 samples.

Results

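Of 43020 peaks of accessible chromatin counted in mouse colon cancer organoids, 700 were gained in every tumour-derived organoid line, and these gained peaks are described here. They were chosen by their read counts in all 6 libraries. With each count divided by the total count of its library and multiplied by 1000000 (CPM, counts per 1000000 reads in peaks), the lowest of the 3 tumour-derived values had to be at least 2 times the highest of the 3 naive values plus 1 CPM. That the gained peaks are higher in the tumour-derived lines is therefore their definition and not a result, and it is given without a test.

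All 6 libraries came from colon cancer organoids with the genotype given as AKP. The naive group held 3 libraries of organoids with no recipient mouse. In the primary tumour group were 3 libraries, called tumour lines 1 to 3 after their replicate numbers. They are organoid lines from tumours that naive AKP organoids formed in immunocompetent mice given as C57Bl6. The naive organoids had been placed in the colon by colonoscopy, and the lines were passaged until no host cells were left in culture, per the series' description. Effects of engraftment, of tumour growth and of the later passages cannot be told apart. The labels do not say whether replicates came from separate mice or cultures, so p-values and SDs measure the spread between these libraries, which may be technical. The sources used here give neither the age of the mice nor the way the AKP alleles were made.

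The assay was ATAC-seq. The transposase Tn5 inserts adapters where DNA is not wrapped tightly in nucleosomes, so reads pile up at open promoters, enhancers and insulator sites. Enhancers, short elements that bind transcription factors and act on promoters at a distance, differ most between cell states, and they often occur in groups along a chromosome. SOX17, the factor named in the series title, is an HMG-box transcription factor of endoderm development that binds such elements. Peaks are given on build mm9, with start and end as the authors' table gives them. They were not assigned to genes and no peak sequence is shown, because a genome and annotation of that build were not used here. For the same reason the labelled tissue was not checked against marker genes.

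Total counts in peaks ran from 1185356 in naive replicate 1 to 5987545 in naive replicate 2, and from 1916819 to 3594735 in the primary tumour libraries. One read was thus worth 0.844 CPM in naive replicate 1 and 0.167 CPM in naive replicate 2. A naive level of a few CPM is therefore coarse in the first and finer in the second. Spread between libraries holds counting error as well as any difference between cultures.

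The gained peaks made up 1.63% of all peaks, and the mirrored rule, with the groups exchanged, found 345 lost peaks (0.802%). Gained peaks were thus 67.0% of the peaks that met either rule, and this share ran from 62.8% to 74.3% over the other thresholds and scalings tried. The count itself followed the threshold: 1670 peaks met a factor of 1.5, 185 met a factor of 3, and 449 met the factor of 2 with 2 CPM added. All 185 and all 449 were among the 700. In the whole-table test with edgeR, 2893 of 36179 tested peaks (8.0%) were called higher in primary tumour lines at an adjusted p under 0.05. Of the 700 gained peaks 690 were tested and 688 were called. The rule read the same contrast, so that count supports nothing about them. The gained peaks were 23.8% of the 2893 calls, and the other 2205 called peaks fell short of the rule.

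**Figure D1:**
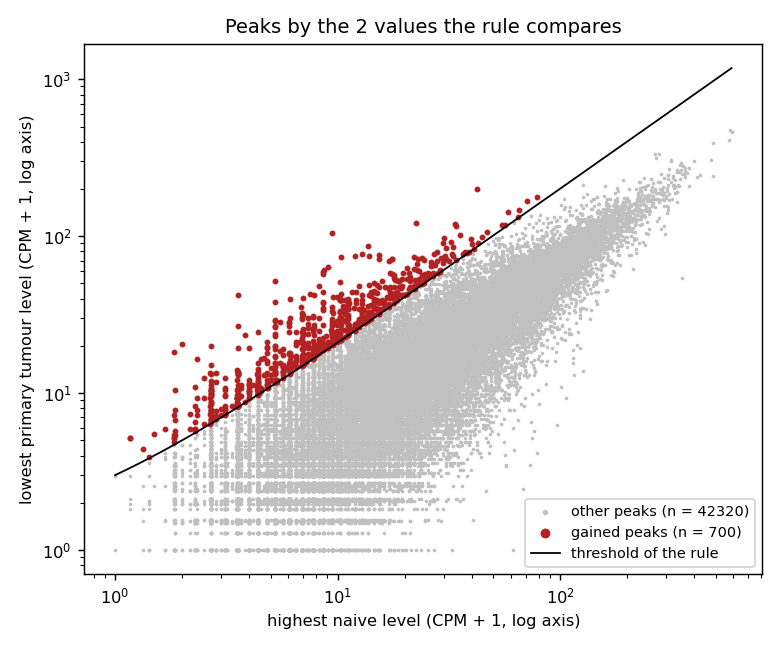
Each point is a peak, with the highest naive level on the x axis and the lowest primary tumour level on the y axis, both as CPM + 1 on log axes. The line is the threshold of the rule. The 700 gained peaks lie above it over the whole lower and middle range of naive levels, and the strongest naive peaks hold none.

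The threshold cut through a continuum of peaks. The lowest ratio of the lowest primary tumour value to the highest naive value plus 1 among gained peaks was 2.002, at chr8:121097975-121098689. That peak had 13.9, 6.26 and 13.2 CPM in tumour lines 1, 2 and 3 and 1.69, 1.67 and 2.13 CPM in naive replicates 1, 2 and 3. The next ratios inside were 2.004 at chr16:10394940-10395577 and 2.005 at chr8:18489272-18489926. Just outside lay chr8:18486930-18487421 with 1.9996, chr5:66941495-66942126 with 1.998 and chr5:8736161-8737595 with 1.997. The first of these outside peaks is 1.85 kb from the inside peak at 18489272 on the same chromosome, so neighbouring elements fell on different sides of the line. Over all 700 the median ratio was 2.417 and 388 were under 2.5. At least 3 was reached by 185, at least 4 by 66 and at least 8 by 5.

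Every gained peak had some naive reads, and a background level outside peaks, against which a few CPM could be judged, was not measured here. The highest naive level was under 1 CPM in 17 gained peaks, from 1 to under 5 CPM in 228, from 5 to under 10 CPM in 222 and 10 CPM or more in 233. None had 0 reads in all 3 naive libraries, and 6 had 3 reads or fewer over the 3 naive libraries together. Single naive libraries were empty more often, with 48 gained peaks at 0 reads in naive replicate 1, 2 in naive replicate 2 and 13 in naive replicate 3. The share of peaks that were gained fell with the naive level by the form of the rule, from 11.8% of 144 peaks in the lowest class through 4.29% and 2.36% to 0.827% of 28166 in the highest.

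The classes differed in how strong and how wide the gained peaks were. The median of the primary tumour mean was 6.45 CPM in the lowest naive class, then 13.5, 28.1 and 54.1 CPM. The rule asks for a higher primary tumour level where the naive level is higher, so this rise is built into the choice. Median widths followed the same order, 392, 584, 839 and 1142 bp, against 296.5, 348, 480 and 947 bp over all peaks of the same classes. Peak edges were drawn from all samples together, per the peak names, so a stronger signal in the tumour-derived lines can enter the width and width is not independent of the rule. The weakest class rests on few reads. The median of the lowest primary tumour count was 10 reads there and 95 reads in the highest class, and 8 gained peaks in all had under 10 reads in a primary tumour library.

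Since the rule asks for high primary tumour and low naive levels, a contrast in rank between the groups is built into the choice. At the median, gained peaks ranked in the upper part of the primary tumour libraries and in the lower part of the naive ones. Their median level was 26.4, 29.5 and 26.3 CPM in tumour lines 1, 2 and 3, and 5.91, 4.01 and 5.74 CPM in naive replicates 1, 2 and 3. Over all peaks the corresponding medians were 12.2, 12.5 and 13.6 CPM and 12.7, 9.69 and 12.3 CPM. The median gained peak stood at percentile 72.1, 75.6 and 72.0 of its primary tumour library and at percentile 26.2, 27.8 and 26.0 of its naive library. Between 43.9% and 50.7% of gained peaks were among the strongest 25% of a primary tumour library. Together they took 2.45%, 2.74% and 2.38% of the reads in peaks of the primary tumour libraries and 0.567%, 0.453% and 0.594% in the naive ones.

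Per kilobase of peak, which allows peaks of different width to be compared, the median gained peak had 31.7, 33.8 and 30.0 CPM per kb in primary tumour lines. Over all peaks the medians were 16.4, 16.6 and 17.8 CPM per kb in the same lines. In naive organoids gained peaks had 6.14, 4.78 and 6.56 CPM per kb, against 16.8, 13.4 and 16.3 CPM per kb over all peaks. Both contrasts follow from the rule. The median log2 difference of the gained peaks, on the log2(CPM + 1) scale, was 2.15, and the middle 80% ran from 1.65 to 2.92. That scale understates the difference of weak peaks.

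Within each class of naive level gained peaks were wider than all peaks at the median, as given above. With the classes pooled, their width was close to that of all peaks at the median, with fewer very narrow ones. The median width was 798 bp (quartiles 602 and 1156 bp), against 746 bp (465 and 1130 bp) over all peaks and 636 bp (463 and 890 bp) for lost peaks. Under 500 bp were 12.7% of gained, 28.3% of all and 31.3% of lost peaks. At least 2000 bp were 4.29% of gained and 4.38% of all peaks. The widest gained peak, chr11:53873781-53877387, covered 3606 bp, while the widest peak of the table covered 6777 bp. The authors' peak score, left unexplained in the sources used here, had a median of 48.1 for gained peaks, 21.8 for all and 20.5 for lost peaks. No gained peak scored above 423.7, and the table's highest score was 5097. Scores and widths both come from peak calling over these same samples, so they are descriptions.

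The 10 gained peaks with the highest ratio lay on 8 chromosomes and had ratios from 6.87 to 11.5. In each of them every primary tumour library was above every naive library, as the rule requires, and 1 had a naive level under 1 CPM in all 3 naive libraries. First in rank was chr19:28698280-28699604, 1324 bp wide. Its levels were 47.9, 90.8 and 40.9 CPM in tumour lines 1, 2 and 3 and 1.69, 1.34 and 2.55 CPM in naive replicates 1, 2 and 3, a 32.2-fold difference of the means. Tumour line 2 stood highest there, and the naive values rest on 2, 8 and 6 reads. Another gained peak lay 1.66 kb away.

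The second was chr6:54978534-54979667. It had 130, 104 and 124 CPM in the primary tumour lines and 8.44, 8.02 and 7.66 CPM in naive organoids, a 14.9-fold difference of the means. The spread was narrow in both groups, and the naive signal was based on 10, 48 and 18 reads. The nearest other gained peak was 309 kb away. It thus stood alone among gained peaks in its surroundings.

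The fewest naive reads of the 10 were seen at the fifth and the third. At chr10:87141713-87142233 the primary tumour lines had 19.5, 35.5 and 22.9 CPM, and the naive libraries held 1, 6 and 0 reads (0.844, 1.002 and 0 CPM). At chr14:27306154-27306576 they had 20.9, 17.2 and 22.9 CPM, and the naive libraries held 0, 5 and 0 reads. The fold of the means there, 73.0, depends on the 5 reads of naive replicate 2. Without that library no naive read was left, and the difference was at least 23.9-fold, computed from a floor of 3 counts over the 2 naive libraries that remained. Both peaks were narrow, 520 and 422 bp, and the nearest gained peaks were 662 and 883 kb away.

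**Figure D2:**
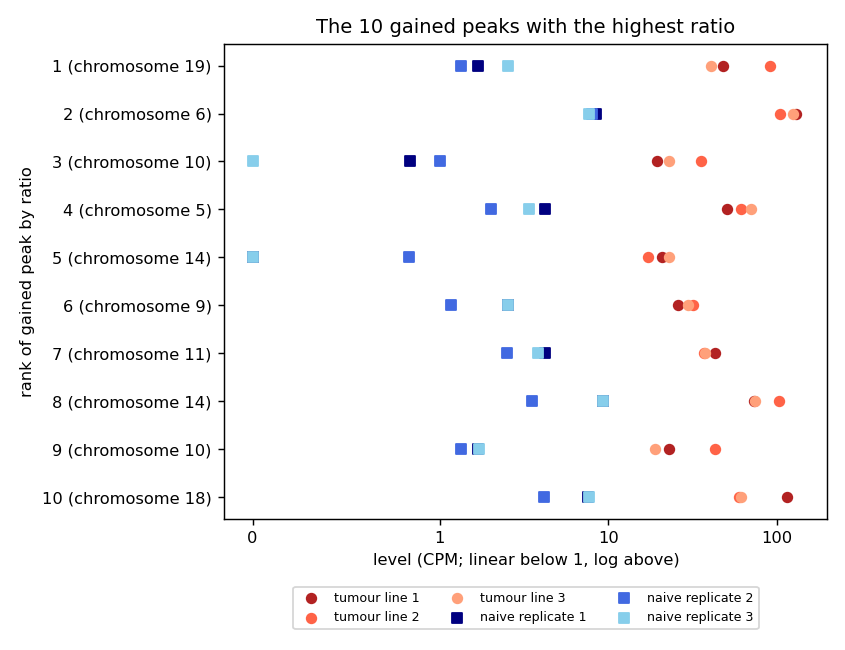
Each row is 1 of the 10 gained peaks with the highest ratio, and each point is the level in 1 library in CPM, on an axis that is linear below 1 and logarithmic above. Circles are primary tumour lines, between 17.2 and 130 CPM, and squares are naive libraries, between 0 and 9.36 CPM.

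The fourth, chr5:103794188-103794740, had 50.6, 61.0 and 70.1 CPM against 4.22, 2.00 and 3.40 CPM. It belonged to the largest group of gained peaks, described further on. The other 5 of the 10 were chr9:120650052-120650525, chr11:99369148-99370342, chr14:54843607-54844602, chr10:44607027-44607725 and chr18:42929735-42931137. Their folds of the means were 13.98, 11.1, 11.3, 17.96 and 12.2 in that order. The chromosome 9 peak lay 0.802 kb from the next gained peak, which is the smallest distance between 2 gained peaks. The chromosome 18 peak had 115, 59.5 and 61.4 CPM in tumour lines 1, 2 and 3, so 1 line stood apart upwards. In 5 of the 10 another gained peak was found within 50 kb.

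The strongest gained peaks, ranked by their lowest primary tumour level, also had high naive levels. At chr15:67996747-67998247 the levels were 208, 236 and 200 CPM in primary tumour lines and 35.4, 34.1 and 41.3 CPM in naive organoids, a 5.82-fold difference of the means. It was also the strongest of the 5 per kilobase, with 143 CPM per kb in primary tumour lines. The other 4 had smaller folds, between 2.62 and 3.05. At chr11:53873781-53877387 the levels were 178, 240 and 200 CPM against 73.4, 71.3 and 77.4 CPM, the highest naive mean of all gained peaks. At chr1:90371007-90372568 the means were 182 ± 13.9 and 64.3 ± 5.55 CPM, at chr19:9180540-9182281 they were 170 ± 21.4 and 55.9 ± 10.1 CPM, and at chr6:31050016-31051158 they were 148 ± 6.77 and 56.5 ± 1.61 CPM (SD, n = 3 each). The chromosome 11, 1 and 6 peaks of this set also had the 3 highest naive means. Primary tumour means of at least 50 CPM were reached by 148 gained peaks and of at least 100 CPM by 27.

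The tumour-derived lines did not reach the same height at every gained peak. Among the 606 with at least 20 reads in each primary tumour library, the highest line was a median of 1.48 times the lowest (quartiles 1.28 and 1.81), and 16.5% differed by more than 2 times. Over all 22092 peaks with that depth the median was 1.47 and the share was 17.1%. These values were close. The rule acts on the lowest line, and the compared peaks were not matched for level. The values therefore cannot show whether lines vary as much at gained peaks as elsewhere. Tumour line 2 was the highest line at 335 gained peaks (47.9%, against 31.5% of all peaks), line 1 at 218 (31.1%, against 31.8%) and line 3 at 147 (21.0%, against 36.8%). Line 1 was the lowest at 270 (38.6%, against 39.7% of all peaks), line 3 at 258 (36.9%, against 26.7%) and line 2 at 172 (24.6%, against 33.6%). Across the 700 gained peaks Pearson's r of log2(CPM + 1) between lines was 0.822 to 0.892, and over all peaks it was 0.861 to 0.889. Between naive libraries it was 0.810 to 0.857 across gained peaks and 0.885 to 0.927 over all peaks. Peaks are not independent replicates, and the range of levels is bounded by the rule.

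Among gained peaks with at least 20 reads in each primary tumour library, the largest spread was at chr15:59962555-59963393. Its levels were 5.56, 34.4 and 20.9 CPM in tumour lines 1, 2 and 3 and 0, 1.002 and 1.28 CPM in naive replicates 1, 2 and 3. Its 26.7-fold difference of the means was 36.5-fold without tumour line 1, the lowest line there. It was 17.5-fold without tumour line 2 and 40.5-fold without naive replicate 3. At chr15:6972316-6973289 and chr12:9845978-9847156 tumour line 2 stood far above the other lines. It had 74.1 CPM at each, against 13.4 and 20.5 CPM at the first and 14.5 and 19.97 CPM at the second. Without that line their folds of the means were 3.94 and 5.76 in place of 8.37 and 12.1. The smallest spread at that depth was at chr16:25465548-25466476, with 40.1, 39.1 and 39.0 CPM, while the naive libraries there varied between 5.91 and 13.6 CPM.

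Since all 6 libraries entered the rule, it was also applied to 5 libraries and the left-out library was read afterwards. Without tumour line 1 the rule chose 1175 peaks. In the left-out line 1124 of them (95.7%) were above the highest naive level, against 32.3% of all peaks, and 700 (59.6%) met the full threshold, against 4.86% of all peaks. Without tumour lines 2 and 3 the rule chose 978 and 1001 peaks, of which 97.96% and 98.0% were above the highest naive level in the left-out line. Over all peaks these shares were 33.3% and 36.4%. The chosen peaks were low in the naive libraries by choice, which raises both shares in any line.

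A naive library left out gave the same order. Without naive replicates 1, 2 and 3 the rule chose 1173, 809 and 1241 peaks, and 96.5%, 99.8% and 96.9% of them were below the lowest primary tumour level in the left-out library. Over all peaks the shares were 31.1%, 39.1% and 28.5%. The chosen peaks were high in the tumour lines by choice, which raises this share in any library. The full threshold was met in the left-out library by 59.7%, 86.5% and 56.4% of the chosen peaks, against 5.2%, 7.67% and 3.89% of all peaks, and the same choice raises these shares too. The left-out library was on the other side at 51, 20 and 20 peaks for tumour lines 1, 2 and 3 and at 41, 2 and 38 for naive replicates 1, 2 and 3. The deepest library, naive replicate 2, thus removed the fewest peaks from the list when added, 109, and naive replicate 3 the most, 541.

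Gained peaks lay on every autosome and on chromosome X, and the 2 peaks of chromosome Y were not among them. The highest share was on chromosome 18, with 36 of 1534 peaks (2.35%), and the lowest on chromosome X, with 5 of 1032 (0.484%). Chromosome 13 was the lowest autosome, with 15 of 2054 (0.730%). There the median over all peaks of the chromosome differed in 1 line, and whether the shift covered all of the chromosome was not tested. Relative to the naive mean, the median log2 ratio of its peaks was -0.56 in tumour line 2, -0.05 in line 1 and -0.02 in line 3. Without tumour line 2 the rule chose 43 peaks on chromosome 13 (2.09%), inside the range of the other autosomes without that line (1.48% to 3.26%). On chromosome 18 all 3 lines had positive medians, 0.28, 0.16 and 0.25. This was not particular to chromosome 18. Chromosome 16 had 0.17, 0.11 and 0.19 with 2.22% of its peaks gained, and chromosome 19 had 0.25, 0.08 and 0.16 with 1.40%. With the median of each chromosome removed from each library, the gained peaks were 30 on chromosome 13 (1.46%), 22 on chromosome 18 (1.43%) and 7 on chromosome X (0.678%). The order of chromosomes 13 and 18 in the first count was thus not kept, and chromosome X was the lowest in both counts. A shift in 1 line was not limited to chromosome 13. On chromosome 5 the median was -0.31 in tumour line 1, 0.01 in line 2 and 0.15 in line 3. Gained peaks were 1.22% of the peaks of chromosome 5, and 1.52% with chromosome medians removed.

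**Figure D3:**
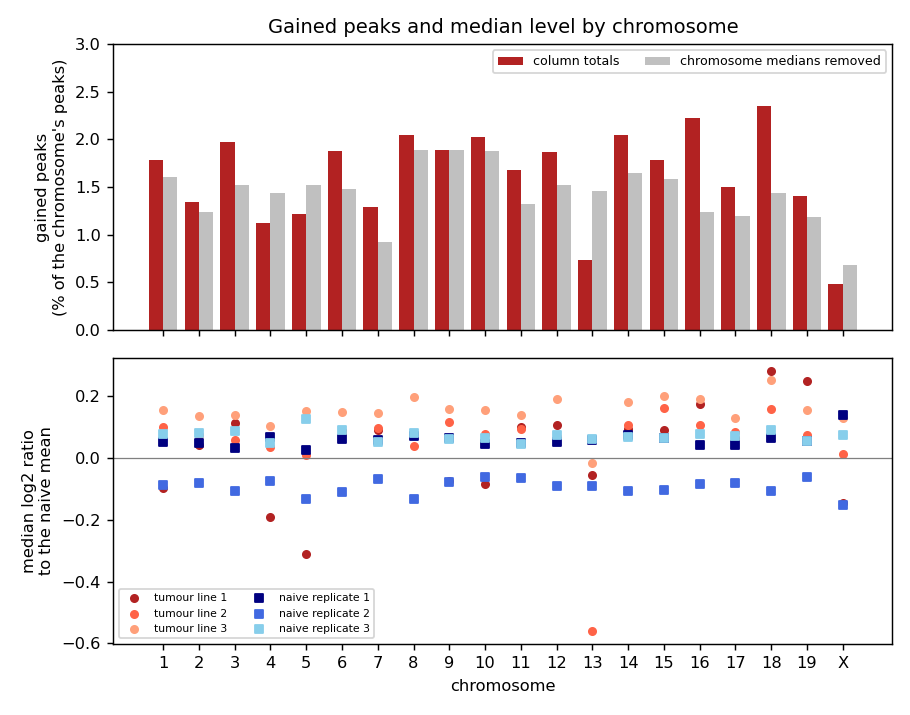
The upper panel gives gained peaks as a percentage of each chromosome's peaks, by column totals (red) and with chromosome medians removed from each library (grey). The lower panel gives every library's median log2 ratio over the naive mean. Tumour line 2 lies at -0.56 on chromosome 13, where the red bar is 0.730% and the grey bar 1.46%.

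Along the chromosomes, gained peaks lay closer to other gained peaks than the remaining peaks did. The median distance from a gained peak to the nearest other gained peak was 327 kb, while the median distance from a peak that was not gained to the nearest gained peak was 1016 kb. Another gained peak lay within 10 kb of 12.3% of gained peaks and of 1.67% of the other peaks, and within 50 kb of 26.0% and 6.57%. Gained peaks also sat in somewhat denser surroundings. The nearest peak of any kind was a median of 5.17 kb away, against 7.33 kb over all peaks. The next peak along the chromosome was also gained for 10.1% of gained peaks, against 1.63% of peaks in the whole table. Lost peaks showed a like figure, 8.14% against 0.802%. These shares carry no test, since peaks on a chromosome are not independent.

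When gained peaks within 50 kb of each other were joined, 182 of the 700 fell into 79 groups of 2 or more and 518 stood alone. Of the groups, 65 were pairs and 14 had 3 or more members. Grouped and single gained peaks were alike in ratio, with medians of 2.49 and 2.40. Grouped ones were stronger in primary tumour lines, with a median of 34.6 CPM against 25.8 CPM, and had a median width of 863 bp against 779 bp. Joining within 20 kb put 118 gained peaks in groups and joining within 100 kb put 244.

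The largest group held 7 gained peaks on chromosome 5 from 103786722 to 103856205, and these were all the peaks of the table in that stretch of 69.5 kb. Their summed level was 206, 228 and 253 CPM in tumour lines 1, 2 and 3 and 38.8, 17.4 and 35.7 CPM in naive replicates 1, 2 and 3. The groups do not overlap in this sum, which the choice of its peaks fixes. The log2 differences of the 7 ran from 1.82 to 3.90. The strongest 2, the peak at 103794188 and its neighbour at 103796055, lay 1.3 kb apart near the start of the group. At the neighbour the levels were 66.5, 56.3 and 78.4 CPM against 7.59, 1.503 and 6.81 CPM. Weak members filled the group as well, such as that at 103855988, which is 217 bp wide and had 4.17, 5.22 and 8.28 CPM against 0, 0.835 and 0.425 CPM.

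**Figure D4:**
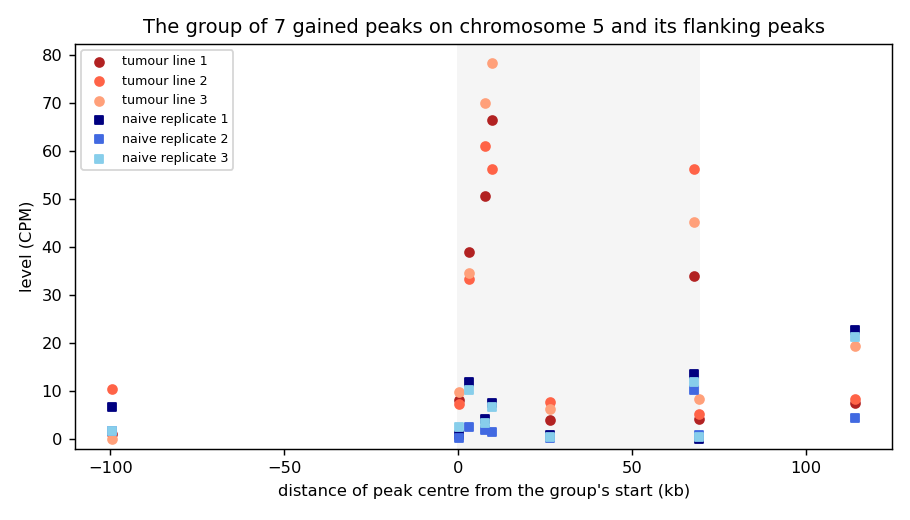
Each point is the level in CPM of 1 peak in 1 library, by the distance of the peak's centre from the start of the chromosome 5 group in kb, with the group shaded. Circles are primary tumour lines and squares are naive libraries. All 7 peaks in the shaded stretch have every circle above every square, and the flanking peaks at either side do not.

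The peaks on either side of the chromosome 5 group did not share its difference. The flanking peak on the left, 99.3 kb away, had 1.11, 10.4 and 0 CPM in primary tumour lines and 6.75, 1.67 and 1.70 CPM in naive organoids. The flanking peak on the right, 43.97 kb away, had 7.51, 8.35 and 19.5 CPM against 22.8, 4.34 and 21.3 CPM. The groups overlap in both.

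A pair of further groups had 5 gained peaks each, again with no other peak between them. On chromosome 11 from 54020046 to 54038586 (18.5 kb) the summed level was 181, 213 and 191 CPM in primary tumour lines and 43.0, 21.0 and 37.0 CPM in naive organoids. On chromosome 9 from 120428190 to 120451709 (23.5 kb) it was 243, 281 and 258 CPM against 81.0, 64.6 and 94.0 CPM. Here the flanking peaks on the left had every primary tumour library above every naive library, as in the group. They lay nearer to their groups than the flanking peaks of chromosome 5, so the flanks were not compared at like distances. On the left of the chromosome 11 group, 4.29 kb away, a peak had a log2 difference of 1.66 and a ratio of 1.52, and on the left of the chromosome 9 group, 1.16 kb away, one had 1.88 and 1.91. Both were below the threshold of the rule. On the right, 22.9 kb from the chromosome 11 group and 3.435 kb from the chromosome 9 group, the log2 differences were 0.50 and 0.70. In both of these right flanks the primary tumour and naive libraries overlap.

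Peaks that were not gained but lay near a gained peak are given as a description. Their places follow from the gained peaks, which were chosen on these same 6 libraries, so they are not independent of the rule and no p is given. For each library the median log2(CPM + 1) of such peaks was taken relative to the median over all peaks of the library. For the 705 peaks within 10 kb this was 0.22, 0.25 and 0.05 in tumour lines 1, 2 and 3 and -0.41, -0.61 and -0.43 in naive replicates 1, 2 and 3. Every primary tumour line was above every naive library, and the difference of the group means was 0.66. For the 24880 peaks that were not gained and lay within 10 kb of any other peak, the difference was -0.03.

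The difference became smaller with distance. It was 0.27 for the 2076 peaks from over 10 to 50 kb away, 0.09 for the 5144 from over 50 to 200 kb away and -0.07 for the 34395 farther away. All 3 primary tumour libraries were above all 3 naive libraries at 44.5% of the peaks within 10 kb, then at 27.4%, 18.1% and 12.6%. In the whole table, gained peaks included, 15.9% of peaks were separated in this way. The edgeR calls had the same order. Of the 607 tested peaks within 10 kb 183 (30.1%) were called higher, and the shares were 13.9%, 8.13% and 4.93% at the greater distances. Over all tested peaks, gained peaks included, the share was 8.0%. Of the 21810 tested peaks that were not gained and lay within 10 kb of any other peak, 7.13% were called. The same measure beside lost peaks had the other sign, -0.87 for 254 peaks within 10 kb. With chromosome medians removed from each library, the difference for the same 705 peaks within 10 kb of gained peaks was 0.65.

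**Figure D5:**
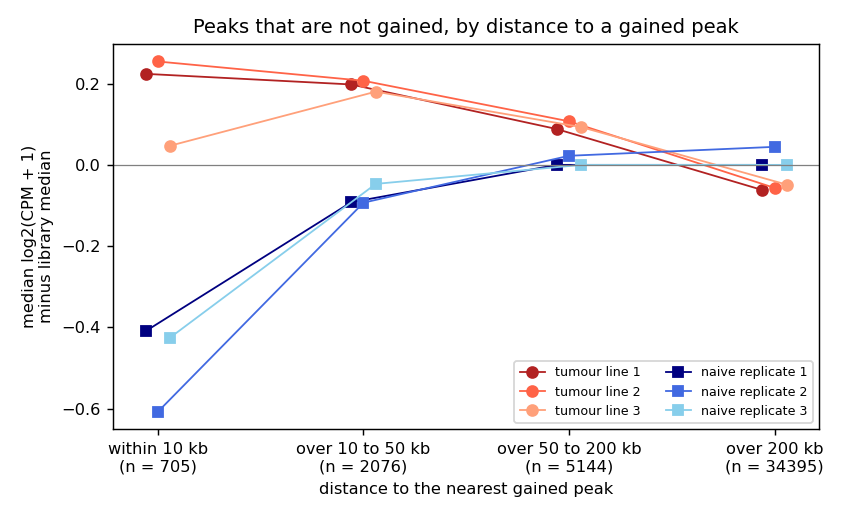
For peaks that are not gained, the y axis gives the median log2(CPM + 1) minus the median of the library, by distance to the nearest gained peak on the x axis, with 1 line per library. Within 10 kb the primary tumour libraries lie between 0.05 and 0.25 and the naive libraries between -0.61 and -0.41, and over 200 kb all 6 lie between -0.06 and 0.04.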

How the data were processed

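ATAC-seq libraries were made from 50000 cells each and sequenced as paired reads of 75 bases, per the labels' protocols. The authors deposited 1 table of raw read counts per peak, with peaks defined over all samples per the peak names. Per the submitters' processing notes, the tools were MACS2, Bowtie, bedtools, SAMtools and Picard and the build was mm9. The sources used here give no versions, no handling of duplicates and no shift for the transposase offset. Duplicates, if kept, would raise counts.

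CPM was computed here as the count over the column total times 1000000. The whole table was fitted with edgeR 4.0.16 in R 4.3.3 (filterByExpr, TMM, robust quasi-likelihood F test, 2-sided, Benjamini-Hochberg over all tested peaks), with the DESeq2 1.42.0 Wald test as an alternative. The fit was tested on simulated data. Distances are edge to edge. Named peaks were the 10 highest ratios, the 5 highest lowest primary tumour levels, the 3 highest naive means, the largest 3 spreads and the smallest 1, 3 on either side of the threshold and the 3 largest groups. Spreads were ranked among gained peaks with at least 20 reads in each primary tumour library. The extreme chromosomes with at least 100 peaks were also named. Gained peaks, lists and settings were chosen with earlier results of these data known. Lost peaks under other settings and the chromosome medians for neighbouring peaks were added after the data were seen. A permutation test planned for neighbouring peaks is not given, because their places depend on the rule.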

Additional observations from a re-analysis of the deposited data

How the results depend on the processing

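The number of gained peaks, 700, was 1670 with a factor of 1.5, 185 with a factor of 3 and 449 with 2 CPM added. With TMM scaling it was 662 (634 shared), with DESeq2 size factors 646 (625 shared), and with chromosome medians removed 625 (573 shared). Leaving out 1 library gave between 809 and 1241, since fewer libraries have to pass, and it was over 1.5 times higher without tumour line 1 (1175), naive replicate 1 (1173) and naive replicate 3 (1241). Joining within 20 kb put 118 gained peaks in groups, against 182. Leaving out 1 library gave between 1366 and 3033 peaks called higher by edgeR, against 2893, with the lowest value without naive replicate 2, and the cause was not tested. With a replicate block edgeR called 1972 of 36179 tested peaks, and 671 of the 690 tested gained peaks. The rule read the same contrast, so the count of gained peaks supports nothing about them. Same-numbered libraries had correlations of deviations of -0.24, -0.11 and 0.01, and none of the 6 was closest to the library of its own number, so the numbers were not used as pairs. The difference beside gained peaks kept its direction in every setting run, between 0.35 (within 50 kb) and 0.72. The gained peaks were those of the main rule on all 6 libraries in each of these settings. The direction is thus carried over from that choice, and these settings do not check it independently. Depth limits the 94 gained peaks with under 20 reads in a primary tumour library.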
